A study of Mus musculus with 9 samples.

Results

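Amino acid transporters of the plasma membrane and the lysosome were followed in MyC-CaP mouse prostate cancer cells during treatment with the stromal protein asporin (ASPN). The genes are the rows of the count table whose symbols begin with Slc1a, Slc3a, Slc6a, Slc7a, Slc36a, Slc38a or Slc43a and a number, which gave 46 of the 15384 protein-coding genes of the table. Of these, 27 had enough reads to be tested and 19 did not. The rule is one of names, and it also took in genes that carry other cargo, such as Slc6a8 (creatine), Slc6a4 (serotonin) and Slc43a3 (purine nucleobases), and Slc7a6os, which is named for its position beside Slc7a6 and not for transport.

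MyC-CaP is a cell line from a prostate tumor of a mouse that carries a c-Myc transgene in the prostate, and a single line was used. Cells were starved without serum and calcium and then received 100 ng/mL recombinant mouse ASPN, a protein secreted by fibroblasts of the tumor stroma. RNA was sequenced at 0, 12 and 24 hours, with 3 biological replicates for each time and 9 libraries in all. The time 0 libraries carry the same ASPN label as the others, and cells held for 12 or 24 hours without ASPN were not analysed here, so that ASPN and the hours in culture cannot be told apart in any comparison. The comparisons of 12 and of 24 hours with time 0 share the time 0 libraries, and the comparison of 24 with 12 hours shares libraries with both.

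Amino acids cross membranes through several families of carriers. Slc3a2, the CD98 heavy chain, has no transport pore of its own and brings light chains such as Slc7a5 (LAT1) and Slc7a11 (xCT) to the cell surface, where they exchange one amino acid for another. Sodium-coupled carriers such as Slc38a2 and Slc1a5 bring in glutamine and small neutral amino acids, and carriers of the lysosome such as Slc36a1 and Slc38a9 return amino acids to the cytosol or report their level to mTORC1, the kinase complex that controls growth. Cells short of amino acids are known to raise the transcription factor ATF4, which acts on many transporter genes.

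The libraries held 41881191 to 52993821 counts on genes, at which 3 counts equal 0.0566 to 0.0716 CPM, the counts scaled by library size, and libraries of the same time were not duplicates (chi-square per degree of freedom between their counts of 3.41 to 17.5). Among luminal and epithelial markers, Foxa1 (mean of 178 CPM), Krt19 (109), Hoxb13 (79.3) and Krt8 (30.0) were expressed, whereas Epcam had 0 to 1 counts, Cdh1 0 to 10 and Krt18 2 to 22 in each library. Markers of other cells were low, with summed levels of at most 0.907 CPM for basal, 0.183 for endothelial and 0.793 for leukocyte markers, and 9.12 to 14.1 CPM for fibroblast markers, nearly all of it Pdgfra. The 13 mitochondrially encoded genes took 2.60% to 2.85% of the counts at 0 and 12 hours and 0.113% to 0.203% at 24 hours. Without those genes in the fit, 0, 7 and 8 transporters were called at 12 hours, at 24 hours and between 12 and 24 hours, as many as with them.

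Transporter mRNA levels were first compared with each other per kilobase of exons, since longer mRNAs give more reads. The length was that of all annotated exons of a gene together, which can exceed the length of its mRNA and lower its place. Slc38a1, with 17236 bases, had 266 CPM at time 0 and 15.4 CPM per kilobase. Slc1a5, with 4173 bases, had 265 CPM and 63.6 CPM per kilobase. At time 0, Slc7a5, the light chain that carries large neutral amino acids, had the highest level with 126 ± 1.3 CPM per kilobase (SD, n = 3). It was followed by Slc6a6, the taurine transporter, with 123 ± 0.95, and by Slc3a2 with 88.8 ± 1.9. The glutamine carriers Slc1a5 (63.6 ± 0.34) and Slc38a2 (60.8 ± 2.1) came next, and then Slc38a10 (52.8 ± 1.3), a less studied member of the Slc38 family. Among these 6, the libraries of each gene lay wholly above those of the next. All other tested transporters were at 18.9 CPM per kilobase or less, and several neighbors in that lower range overlapped. The libraries of Slc36a1 (10.6 ± 1.0) overlapped those of Slc43a2 above it (11.3 ± 0.054) and of Slc7a11 below it (8.99 ± 0.91), whereas the last 2 did not overlap each other. At 24 hours, Slc3a2 was first with 148 ± 5.5, and Slc7a5 (108 ± 15) and Slc6a6 (96.6 ± 6.3) overlapped. The same 27 tested transporters ranged down to Slc7a14 at 0.0519 ± 0.009 CPM per kilobase at time 0.

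**Figure D1:**
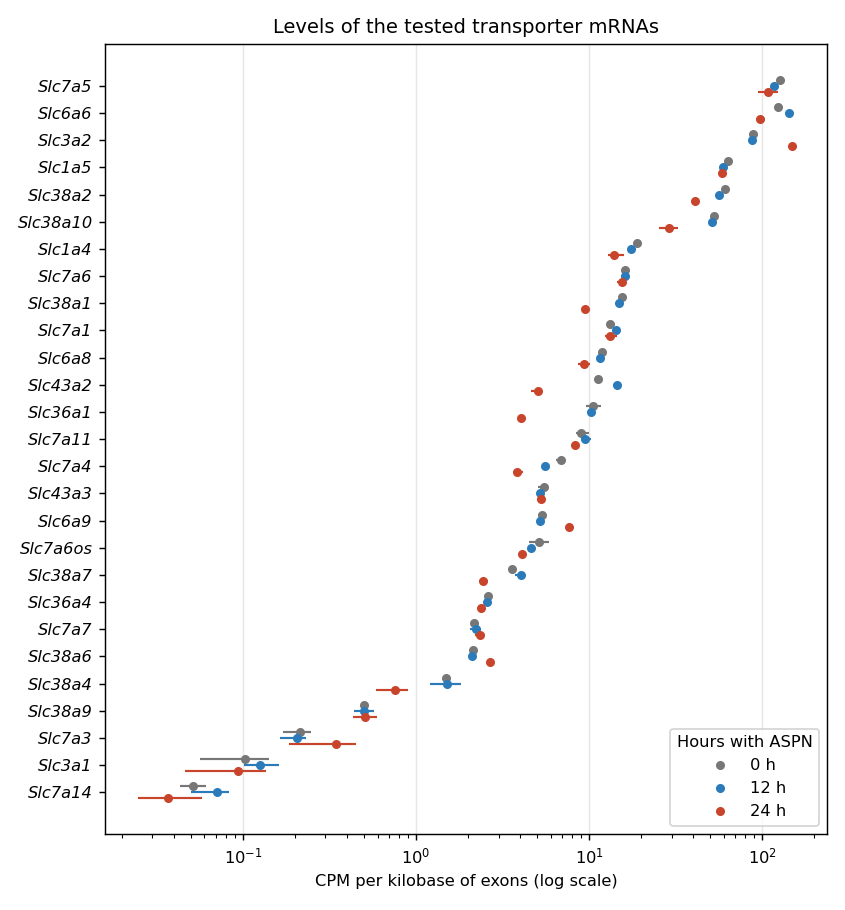
Mean level of each of the 27 tested transporter mRNAs at 0 (gray), 12 (blue) and 24 hours (red) with ASPN. The log axis is in CPM per kilobase of exons, and bars run from the lowest to the highest of 3 libraries. Slc7a5 led at time 0 with 126 CPM per kilobase and Slc3a2 at 24 hours with 148, and the widest gaps between the red points and the others belong to Slc36a1 and Slc43a2.

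To ask which transporter mRNAs changed, each pair of times was tested with edgeR's quasi-likelihood test over all genes, and a gene was called when its Benjamini-Hochberg adjusted p was 0.05 or less and its fold change at least 1.5. Unless another analysis is named, adjusted p-values come from this test. All fold changes are later over earlier, and errors of log2 fold changes are SE. At 12 hours, none of the 27 transporters was called in either direction, in a comparison in which 1.5% of all genes were called higher and 0.0964% lower. DESeq2 and limma-voom also called 0, and 9 of the 27 had an unadjusted p under 0.05, against 21.4% of all genes. By the adjusted p alone, Slc43a2 and Slc6a6 were higher (2 of 27, against 6.85% of all genes) and Slc1a5 and Slc7a4 lower (2 of 27, against 3.47%). The median log2 fold change of the 27 was -0.025, and that of all genes was -0.005.

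At 24 hours against time 0, Slc3a2 was called higher (1 of 27, 3.70%, where 12.0% of all genes were called higher) and 6 transporters were called lower (22.2%, where 16.8% of all genes were called lower). The 6 were Slc36a1, Slc43a2, Slc38a4, Slc38a10, Slc7a4 and Slc38a1. By the adjusted p alone, 3 were higher (11.1%, against 34.4% of all genes) and 14 lower (51.9%, against 36.5%). The median log2 fold change of the 27 was -0.22 and that of all genes -0.02, and 21 of the 27 estimates lay below 0. At 24 against 12 hours, 1 of 27 was called higher, again Slc3a2 (10.4% of all genes), and 7 lower (25.9%, against 15.3% of all genes), namely Slc43a2, Slc36a1, Slc38a4, Slc7a14, Slc38a10, Slc38a7 and Slc38a1. By the adjusted p alone these numbers were 3 higher (11.1%, against 35.7%) and 14 lower (51.9%, against 35.6%). All 46 genes together took between 0.421% and 0.434% of a library's counts at time 0, between 0.429% and 0.439% at 12 hours and between 0.295% and 0.323% at 24 hours. As RNA was taken from whole wells, fewer cells with an mRNA and less of it in each cell cannot be told apart.

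The split into higher and lower depended on the scaling. With total counts in place of TMM factors, the median of all genes was -0.24 at 24 hours against time 0 and -0.22 against 12 hours, and the transporters called were 0 higher and 9 lower against time 0, where 6.1% and 26.3% of all genes were called, and 0 higher and 10 lower against 12 hours, where 4.25% and 24.8% were. With offsets for exonic length and GC content, they were 3 higher and 5 lower against time 0 (12.5% and 14.6% of all genes) and 3 higher and 3 lower against 12 hours (12.0% and 12.2% of all genes). Values under these settings are given beside the genes whose call they changed.

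**Figure D2:**
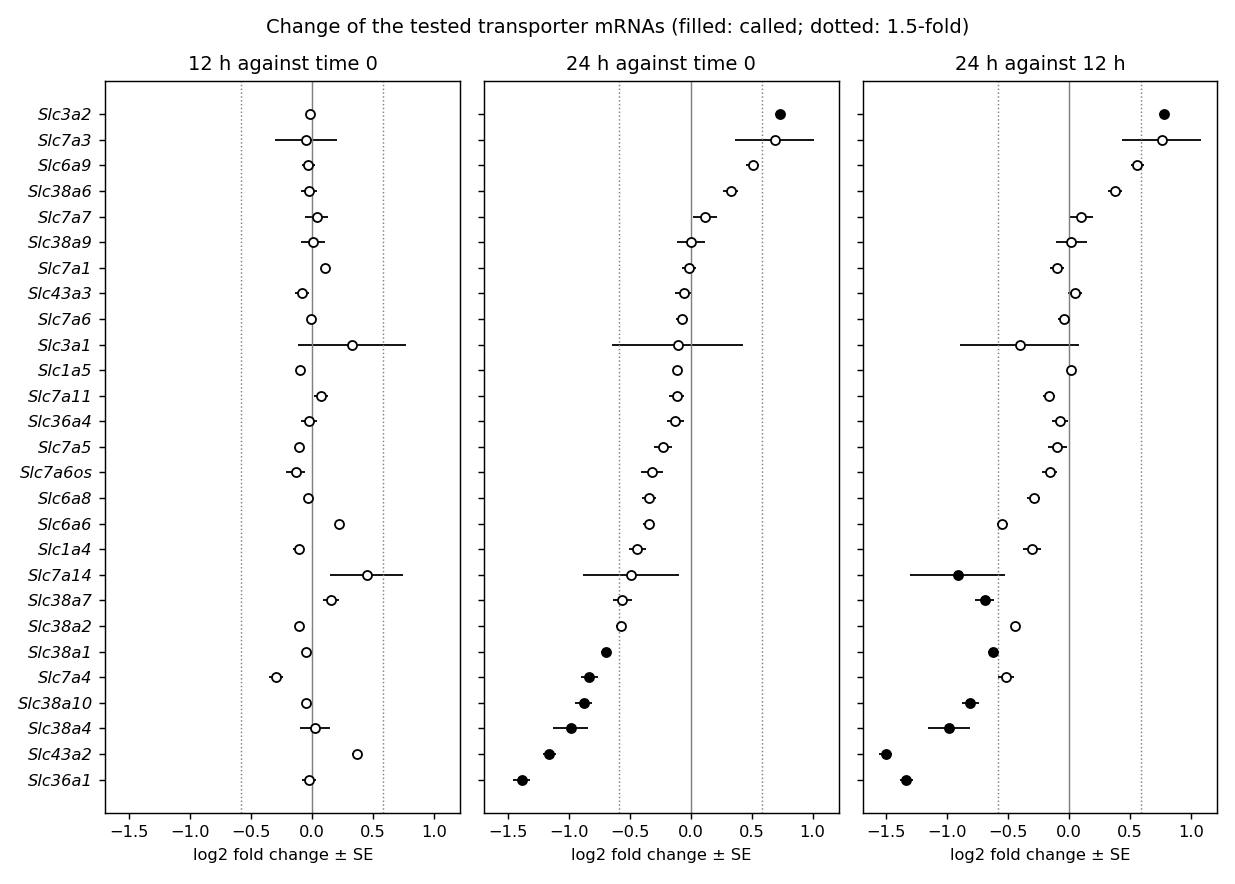
Log2 fold change with its SE (bars) of each of the 27 tested transporters in the 3 comparisons, in the order of 24 hours against time 0, with filled points for called genes and dotted lines at 1.5-fold. No point is filled at 12 hours against time 0, and at 24 hours Slc3a2 (0.73) is the only filled point on the right, with Slc36a1 (-1.38) and Slc43a2 (-1.16) farthest to the left.

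Slc3a2, the heavy chain (chromosome 19, 8706882 to 8723369, GRCm38), was the transporter mRNA called higher at 24 hours. Its libraries had 312, 321 and 308 CPM at time 0, 299, 306 and 321 at 12 hours, and 507, 544 and 513 at 24 hours. The 24-hour libraries lay above all 6 earlier ones, which overlapped each other. Slc3a2 was 1.66-fold higher at 24 hours than at time 0 (log2 fold change of 0.73 ± 0.042, adjusted p = 4.78e-09) and 1.71-fold higher than at 12 hours (0.77 ± 0.040, adjusted p = 1.65e-09). At 12 hours it was at -0.02 ± 0.034 against time 0 (adjusted p = 0.811). Under total-count scaling it stayed higher but fell short of 1.5-fold (0.51 against time 0 and 0.55 against 12 hours).

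The light chains that pair with Slc3a2 were not called in any comparison. Slc7a5, which takes up leucine and other large neutral amino acids, had 472, 462 and 465 CPM at time 0, 417, 420 and 461 at 12 hours, and 349, 459 and 391 at 24 hours. Its 24-hour libraries were the most spread and lay below those of time 0, with replicate 2 close to them (log2 fold change of -0.22 ± 0.074, adjusted p = 0.0162). Without time 0 replicate 1, 24-hour replicate 1 or 24-hour replicate 3, the adjusted p of this difference was 0.0588, 0.0531 or 0.0655. The value itself ran from -0.13 without 24-hour replicate 1 to -0.33 without 24-hour replicate 2, and was -0.44 under total counts and -0.10 with the length and GC offsets (adjusted p = 0.158). Slc7a6, an exchanger of cationic and neutral amino acids, was at 73.9 ± 1.9 CPM at time 0, 73.4 ± 3.3 at 12 hours and 70.5 ± 3.9 at 24 hours. Slc7a7, which has a like function, was low at 7.2 ± 0.28, 7.38 ± 0.55 and 7.83 ± 0.55 CPM, and its exons overlap Oxa1l on the other strand over 7.0% of their length. The estimates at 24 hours against time 0 were -0.07 ± 0.049 for Slc7a6 (adjusted p = 0.242) and 0.12 ± 0.097 for Slc7a7 (adjusted p = 0.289). Under total counts they were -0.29 (adjusted p = 2.25e-04) and -0.10 (adjusted p = 0.364). With the length and GC offsets they were -0.03 (adjusted p = 0.566) and 0.18 (adjusted p = 0.127).

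Slc7a11, the cystine and glutamate exchanger that supplies cystine for glutathione, had 140, 117 and 119 CPM at time 0, 124, 128 and 142 at 12 hours, and 120, 112 and 115 at 24 hours. The 3 times overlapped except that 24 hours lay below 12 hours (log2 fold change of -0.17 ± 0.050, adjusted p = 0.00925), and without 12-hour replicate 3 that adjusted p was 0.0597. Against time 0, 24 hours was at -0.11 ± 0.062 (adjusted p = 0.117), and at -0.15 to -0.0078 with a library left out. Under total counts this value was -0.33 (adjusted p = 1.73e-04), and with the length and GC offsets -0.18 (adjusted p = 0.00716). The remaining light chains were near 0. Slc7a8 (LAT2) had 3 counts in a single library and 0 in the other 8, and Slc7a13 had 0 to 3 counts per library. Slc7a9 and Slc7a10 are not among the rows used here. Slc3a1, the heavy chain of cystine transport in kidney, had 5 to 17 counts per library and was called in no comparison. Its exons overlap Prepl on the other strand over 26.5% of their length, and the strand used in counting is not stated, so that these few reads may belong to either gene.

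Heavy and light chain mRNA were then set against each other within each library. Per kilobase, the ratio of Slc3a2 to the sum of Slc7a5, Slc7a6, Slc7a7 and Slc7a11 was 0.569, 0.599 and 0.573 at time 0, 0.603, 0.614 and 0.599 at 12 hours, and 1.19, 1.04 and 1.10 at 24 hours. All 24-hour libraries lay above all earlier ones, and the 12-hour libraries lay at or above the highest of time 0. The means were 0.580 ± 0.016, 0.605 ± 0.0075 and 1.11 ± 0.074 (SD, n = 3), and a two-sided exact permutation test gave p = 0.1 for each pair of times, the smallest that 3 against 3 libraries allow. A ratio within a library does not depend on the scaling between libraries. Against Slc7a5 alone the ratio went from 0.706 ± 0.020 to 1.38 ± 0.14.

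**Figure D3:**
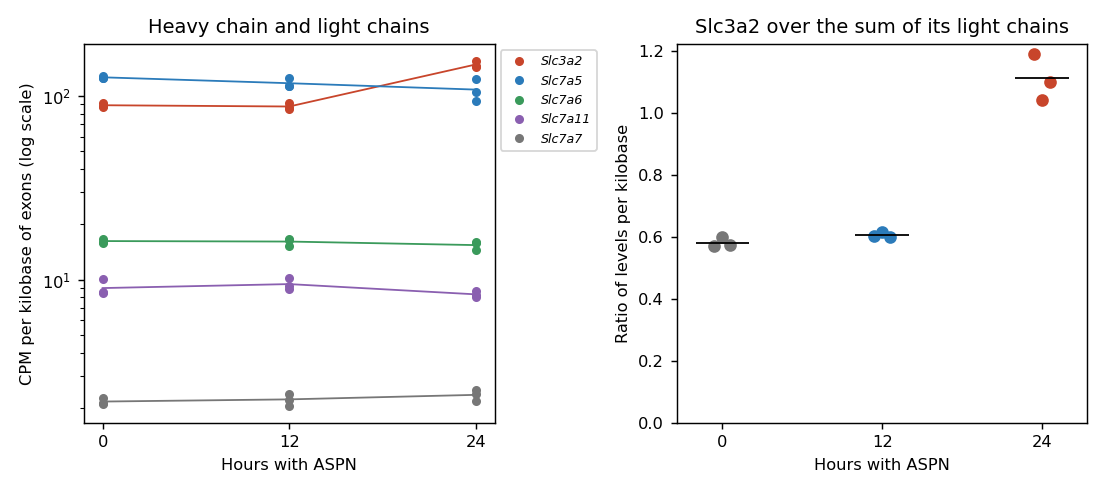
Left, levels of Slc3a2 and its tested light chains in each library (points) with lines through the means, in CPM per kilobase of exons on a log axis, against hours with ASPN. Right, the ratio of Slc3a2 to the sum of the light chains in each library with the mean (bar), which was 0.580 at time 0, 0.605 at 12 hours and 1.11 at 24 hours.

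Slc36a1 (PAT1), a proton-coupled carrier of small amino acids that sits largely on the lysosome, had the most negative log2 fold change of the 27 at 24 hours against time 0 (chromosome 11, 55204350 to 55236330). It had 54.2, 65.6 and 58.4 CPM at time 0, 59.3, 60.3 and 54.7 at 12 hours, and 22.6, 24.0 and 21.8 at 24 hours. The 0- and 12-hour libraries overlapped, and those of 24 hours were far below both. At 24 hours the mRNA was at 38.4% of its time 0 level (log2 fold change of -1.38 ± 0.071, adjusted p = 1.77e-09) and at -1.33 ± 0.056 against 12 hours (adjusted p = 3.04e-10). It was called in all 21 analyses of each comparison with 24 hours, with values from -1.61 to -1.16 against time 0. The neighbors Slc36a2 and Slc36a3, which lie beside it on chromosome 11, had at most 3 and 1 counts in a library. Slc36a4, a related carrier, was at 17.1 ± 0.70 CPM at time 0 and 15.7 ± 0.70 at 24 hours and was called in no comparison.

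The other lysosomal carriers differed from each other. Slc38a7 (SNAT7), which exports glutamine from the lysosome, had 15.0, 14.7 and 15.2 CPM at time 0, 16.8, 15.5 and 17.7 at 12 hours, and 10.1, 9.56 and 10.8 at 24 hours. Each 12-hour library was above time 0 and each 24-hour library below it. It fell by 0.69 on the log2 scale between 12 and 24 hours (SE 0.079, adjusted p = 3.51e-06), though not to the threshold with the length and GC offsets (-0.50). Against time 0 it was at -0.56 ± 0.080 (adjusted p = 3.06e-05), short of 1.5-fold, and past it without 24-hour replicate 3 (-0.61) and under total counts (-0.78). Slc38a9, the lysosomal arginine sensor upstream of mTORC1, had 8.39 ± 0.24, 8.40 ± 1.1 and 8.43 ± 1.3 CPM at the 3 times. Its log2 fold change at 24 hours against time 0 was 0.00 ± 0.113 (adjusted p = 0.983), and under total counts it was -0.22.

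Slc43a2 (LAT4), a facilitated carrier of large neutral amino acids on chromosome 11 (75531694 to 75577575), was higher at 12 hours and fell at 24 hours. It had 113, 113 and 114 CPM at time 0, 147, 152 and 137 at 12 hours, and 51.9, 46.5 and 53.6 at 24 hours. No library of any time overlapped another time. The 12-hour difference was 1.29-fold (log2 fold change of 0.37 ± 0.037, adjusted p = 2.47e-06), which is under the 1.5-fold threshold. At 24 hours it was at 44.8% of time 0 (-1.16 ± 0.052, adjusted p = 7.24e-10) and at -1.51 ± 0.055 against 12 hours (adjusted p = 1.24e-10). The antisense gene Gm45606 covers 9.18% of its exons. In its family, Slc43a1 (LAT3), known from prostate cancer, had only 1 to 12 counts per library, and Slc43a3 was at 24.5 ± 1.8, 23.1 ± 0.22 and 23.6 ± 1.2 CPM at 0, 12 and 24 hours and was not called.

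The start regions of Slc36a1 and Slc43a2, the members with the most negative log2 fold changes at 24 hours against time 0, and of Slc7a11, a known target of ATF4, are shown because the searched motifs differ among them. Each sequence runs 5′ to 3′ on the gene's strand over bases 151 to 2 before the RefSeq start (GRCm38.p6), with motif matches in capitals.
Slc36a1, chr11:55204189-55204338, plus strand: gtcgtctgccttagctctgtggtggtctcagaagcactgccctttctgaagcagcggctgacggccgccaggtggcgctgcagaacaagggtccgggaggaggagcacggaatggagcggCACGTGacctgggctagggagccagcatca
Slc43a2, chr11:75531543-75531692, plus strand: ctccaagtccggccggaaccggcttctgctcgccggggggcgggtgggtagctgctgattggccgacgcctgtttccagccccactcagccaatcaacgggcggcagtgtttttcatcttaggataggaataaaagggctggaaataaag
Slc7a11, chr3:50443615-50443764, minus strand: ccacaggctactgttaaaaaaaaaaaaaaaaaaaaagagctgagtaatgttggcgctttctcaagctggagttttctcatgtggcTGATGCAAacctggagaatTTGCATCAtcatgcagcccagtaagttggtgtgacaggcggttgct
The capitals in Slc36a1 mark an E-box (CACGTG), at bases 31 to 26 before the start, the kind of site that MYC and TFEB bind. Slc43a2 had no match to any of the 3 motifs searched, and Gm45606 on the other strand shares 922 bases of its exons. The capitals in Slc7a11 mark the C/EBP-ATF response element (TGATGNAA), the kind that ATF4 binds, once on each strand at bases 66 to 59 and 47 to 40. Matches were sought on both strands in the 250 bases before the start, and RefSeq had an entry for 34 of the 46 members and for 19 of the 27 tested ones. Among the 19, the C/EBP-ATF element was in Slc7a11 and Slc7a7 (3.45% of all 32851 promoters hold it). The E-box was in Slc36a1, Slc38a7 and Slc7a14 (6.02% of all promoters), and the antioxidant response element (TGACNNNGC) in Slc38a2, Slc6a9, Slc7a1 and Slc7a6 (10.2%). A gene was counted when any of its RefSeq entries matched, whereas the percents are shares of promoter entries. A match is a run of letters, and binding was not measured.

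The system A carriers, which bring glutamine, alanine and serine into the cell with sodium, lie side by side on chromosome 15 on the minus strand, with gaps of 44.5 kb between Slc38a1 and Slc38a2 and 295.1 kb between Slc38a2 and Slc38a4. All 3 were lower at 24 hours. Slc38a1 (SNAT1, 96571418 to 96642913) had 268, 266 and 264 CPM at time 0, 261, 247 and 261 at 12 hours, and 165, 167 and 160 at 24 hours. The 24-hour libraries lay far below the rest, and those of 12 hours just below time 0. Slc38a1 was at 61.7% of time 0 (log2 fold change of -0.70 ± 0.038, adjusted p = 3.19e-09) and at -0.63 ± 0.037 against 12 hours (adjusted p = 6.06e-09), and with the length and GC offsets both values missed 1.5-fold (-0.56 and -0.47).

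Slc38a2 (SNAT2), a transporter known to be raised when amino acids are scarce, had 522, 532 and 558 CPM at time 0, 509, 497 and 489 at 12 hours, and 363, 355 and 368 at 24 hours. The 3 times did not overlap and the level was lower at each later time. At 24 hours it was at 67.4% of time 0 (-0.57 ± 0.041, adjusted p = 4.34e-08), just outside the 1.5-fold threshold, and under total-count scaling it was called (-0.79 against time 0 and -0.67 against 12 hours). Slc38a4 (SNAT4), found mostly in liver, was much lower in level, with 6.53, 6.30 and 6.19 CPM at time 0, 6.43, 7.76 and 5.10 at 12 hours, and 3.82, 3.32 and 2.51 at 24 hours. The 12-hour libraries spread around those of time 0, and all 24-hour libraries were below both. It fell by 0.98 on the log2 scale against time 0 (SE 0.143, adjusted p = 3.50e-05) and by 0.99 against 12 hours (SE 0.173, adjusted p = 1.86e-04). The ratio of Slc38a2 to Slc38a1 per kilobase was 3.94 ± 0.17, 3.79 ± 0.13 and 4.30 ± 0.16 at the 3 times, and p was 0.1 for 24 hours against either earlier time in the exact permutation test.

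In the rest of the Slc38 family, Slc38a10 (chromosome 11, 120103960 to 120151346) had 346, 330 and 342 CPM at time 0, 324, 322 and 338 at 12 hours, and 164, 210 and 181 at 24 hours. The 24-hour libraries were apart from the others and more spread. Slc38a10 was at 54.5% of time 0 (-0.88 ± 0.070, adjusted p = 1.07e-07) and at -0.81 ± 0.067 against 12 hours (adjusted p = 1.56e-07), where the length and GC offsets gave -0.58 and no call. Its exons overlap Gm11769 on the other strand over 5.72% of their length. Slc38a6 went the other way, with 16.7 ± 0.35 CPM at time 0, 16.4 ± 0.51 at 12 hours and 21 ± 0.018 at 24 hours (0.33 ± 0.062 against time 0, adjusted p = 3.28e-04), and the fold was under 1.5. Under total counts this value was 0.11 (adjusted p = 0.149). Of the 9 rows of this family 7 were tested, and their median log2 fold change at 24 hours against time 0 was -0.57.

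**Figure D4:**
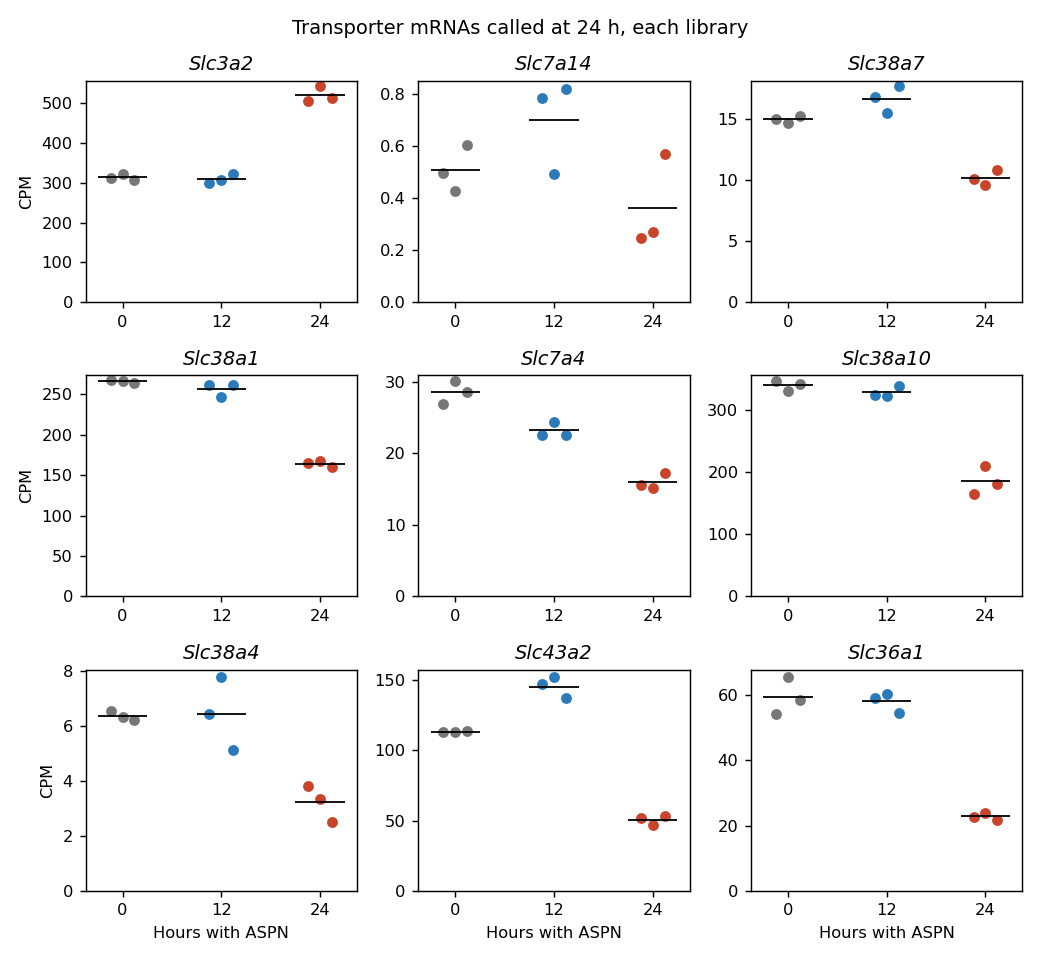
CPM of each of the 9 transporters called in a comparison with 24 hours, in each library (points) with the mean of 3 (bar), against hours with ASPN, on axes that start at 0. Slc3a2 was at 507 CPM or more in each 24-hour library, and the 24-hour points of Slc36a1, Slc43a2, Slc38a1, Slc38a4, Slc38a7, Slc38a10 and Slc7a4 lay below all earlier ones, whereas those of Slc7a14 overlapped them.

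Among the relatives of the cationic amino acid transporters, Slc7a1 (CAT1), the main arginine and lysine carrier of most cells, was at 153 ± 4.1 CPM at time 0, 165 ± 4.6 at 12 hours and 152 ± 14 at 24 hours. It was not called, and at 24 hours against time 0 its log2 fold change was -0.01 ± 0.058 (adjusted p = 0.845). Slc7a4, whose transport activity is not well established, had 26.8, 30.1 and 28.5 CPM at time 0, 22.6, 24.3 and 22.6 at 12 hours, and 15.6, 15.2 and 17.2 at 24 hours. Its 3 times did not overlap. The 12-hour difference was -0.29 ± 0.055 (adjusted p = 0.00154), and at 24 hours Slc7a4 was at 56.2% of time 0 (-0.83 ± 0.071, adjusted p = 2.02e-07). Against 12 hours it was at -0.52 ± 0.066 (adjusted p = 1.15e-05), which was called only under total counts among the scalings (-0.74). P2rx6 on the other strand overlaps 13.3% of its exons.

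The remaining relatives had few reads. Slc7a14 had 24, 20 and 33 counts at time 0, 36, 23 and 36 at 12 hours, and 10, 13 and 27 at 24 hours, so that 24-hour replicate 3 lay among the earlier libraries. Its log2 fold change of -0.91 ± 0.388 at 24 against 12 hours had an adjusted p of 0.0491, and it was called in 12 of 21 analyses, with adjusted p-values of 0.0178 to 0.406 over the alternatives that kept all libraries. The call was lost without 12-hour replicate 1 or 3 (adjusted p = 0.143 and 0.155) and without 24-hour replicate 1 or 2 (adjusted p = 0.123 and 0.136), and also with the length and GC offsets (-0.81, adjusted p = 0.0758). Slc7a3 (CAT3) had 31, 39 and 51 counts at time 0, 40, 39 and 27 at 12 hours, and 70, 73 and 33 at 24 hours. Again 24-hour replicate 3 stood with the earlier libraries, and neither log2 fold change passed (0.69 ± 0.322 against time 0, adjusted p = 0.0721, and 0.76 ± 0.325 against 12 hours, adjusted p = 0.0519). Without that library both were called (1.00, adjusted p = 0.00554, and 1.07, adjusted p = 0.00333). Both were also called with the length and GC offsets (0.74, adjusted p = 0.0442, and 0.83, adjusted p = 0.0295). When the replicate block was added to these offsets, only the call against 12 hours stayed (0.81, adjusted p = 0.0156). Over the alternatives with all libraries the adjusted p ranged from 0.0442 to 0.633 and from 0.0156 to 0.563.

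The neutral amino acid exchangers of the Slc1 family were not called. Slc1a5 (ASCT2), a glutamine carrier that many tumors rely on, was at 265 ± 1.4 CPM at time 0, 247 ± 2.4 at 12 hours and 246 ± 3.0 at 24 hours. The later libraries were all below those of time 0, by -0.10 ± 0.030 at 12 hours (adjusted p = 0.0412) and -0.11 ± 0.037 at 24 hours (adjusted p = 0.0188), and with a library left out the adjusted p was above 0.05 in 5 and in 3 of 6 analyses (at most 0.194 and 0.121). With the length and GC offsets the 24-hour value changed sign to 0.04, and under total counts it was -0.33 (adjusted p = 2.51e-06). Slc1a4 (ASCT1), which prefers alanine, serine and cysteine, had 77.1, 73.3 and 72.5 CPM at time 0 and 50.6, 62.5 and 51.2 at 24 hours. It was lower in each 24-hour library (-0.44 ± 0.071, adjusted p = 8.91e-05), short of 1.5-fold, and under total counts it was called (-0.66). The glutamate carriers Slc1a1, Slc1a2 and Slc1a7 had at most 7 counts in any library.

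The Slc6 family, sodium- and chloride-coupled carriers, held the mRNA with the most reads. Slc6a6 had 1029, 1044 and 1041 CPM at time 0, 1191, 1220 and 1218 at 12 hours, and 779, 878 and 794 at 24 hours. Like Slc43a2, its 12-hour libraries were above and its 24-hour libraries below all those of time 0. The log2 fold changes were 0.22 ± 0.031 at 12 hours (adjusted p = 7.24e-05), -0.34 ± 0.048 at 24 hours (adjusted p = 2.52e-05) and -0.55 ± 0.043 for 24 against 12 hours (adjusted p = 9.91e-08). None of these reached 1.5-fold, though the last did without 24-hour replicate 2 (-0.60) and under total counts (-0.77).

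Slc6a9 (GlyT1), the glycine transporter, had 27.3, 26.2 and 29.0 CPM at time 0, 27.9, 26.1 and 26.6 at 12 hours, and 38.7, 38.8 and 39.9 at 24 hours. All 24-hour libraries were above all earlier ones. Its estimates of 0.51 ± 0.056 against time 0 (adjusted p = 2.36e-06) and 0.56 ± 0.050 against 12 hours (adjusted p = 3.22e-07) were short of 1.5-fold, and it was called with the length and GC offsets (0.69 and 0.77) and, against 12 hours, without 12-hour replicate 1 (0.59). Ccdc24 and Gm17114 on the other strand overlap 27.8% and 9.94% of its exons, so that the gene from which these reads came is uncertain. Slc6a8, the creatine transporter, was at 62.0 ± 2.9 CPM at time 0 and 48.9 ± 3.8 at 24 hours (-0.34 ± 0.060, adjusted p = 1.86e-04) and was not called. Slc7a6os, 2.0 kb from Slc7a6 on the opposite strand, was at 21.6 ± 2.9, 19.6 ± 0.45 and 17.3 ± 0.70 CPM and was not called.

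The 19 members left untested had 0 to 17 counts in a library and 1 to 52 over all 9. Of these, 11 had at most 3 counts in every library, the limit that was used as a floor. They include the tissue-restricted carriers Slc6a5 (glycine, GlyT2), Slc6a14 and Slc6a19, of which Slc6a14 and Slc6a19 had 1 count each in all. A lack of these mRNAs is not shown by such counts, only that they were not measurable at this depth.

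Other genes of amino acid supply were counted from 4 lists. None of their genes was called at 12 hours. Of 31 tested enzymes of amino acid and glutathione metabolism, 2 were called higher and 2 lower at 24 hours against time 0, and the median log2 fold change was -0.04. Asns, which makes asparagine, had 141, 147 and 148 CPM at time 0 and 280, 308 and 281 at 24 hours (1.00 ± 0.047, adjusted p = 9.31e-10), and Phgdh, the first enzyme of serine synthesis, rose by 0.59 ± 0.043 (adjusted p = 4.30e-08). Glul, which makes glutamine, and Shmt1, which interconverts serine and glycine, were lower (-0.59 ± 0.052 and -0.61 ± 0.041). Psat1 and Psph, the next enzymes of serine synthesis, were at 0.58 ± 0.039 and 0.56 ± 0.053, just short of the threshold, and were called against 12 hours (0.59 ± 0.035 and 0.70 ± 0.051).

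Of the 5 regulators of the amino acid response and targets of ATF4, 3 were called higher at 24 hours and 0 lower. Atf4 itself had 233, 261 and 248 CPM at time 0, 266, 279 and 274 at 12 hours, and 578, 619 and 575 at 24 hours. The times did not overlap, and the 24-hour libraries were far above the others (1.26 ± 0.050 against time 0, adjusted p = 2.54e-10). Its targets Trib3 (0.91 ± 0.084) and Ddit3 (0.71 ± 0.111) were also called higher, whereas Chac1 (0.54 ± 0.115, adjusted p = 9.41e-04) and Nfe2l2, the regulator of antioxidant genes (-0.06 ± 0.053, adjusted p = 0.347), were not. The measurements were of mRNA, and ATF4 protein was not measured in these libraries.

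In the amino acid sensing pathway, which links amino acid levels to mTORC1, 2 of 31 tested genes were called higher and 7 lower at 24 hours against time 0, with a median of -0.32. Sesn2, a leucine sensor, had 20.9, 21.2 and 22.4 CPM at time 0 and 30.9, 43.9 and 34.3 at 24 hours (0.76 ± 0.103, adjusted p = 1.82e-05), and its relative Sesn1 moved the other way from 108, 105 and 104 to 55.0, 55.0 and 63.7 CPM (-0.87 ± 0.057, adjusted p = 1.63e-08). Bmt2, known as the S-adenosylmethionine sensor SAMTOR, was higher (0.93 ± 0.049). The kinase gene Mtor (-0.86 ± 0.061), its partner Rptor (-0.62 ± 0.059), Castor2 (-0.92 ± 0.098), Mios (-0.70 ± 0.077) and Fnip2 (-1.10 ± 0.059) were lower. Eif2ak4 (-0.76 ± 0.051), which encodes the kinase GCN2 that senses uncharged tRNA, was also lower. Castor1 was at 0.30 ± 0.072 (adjusted p = 0.00209) and was not called.

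Of 15 tested carriers of amino acids or peptides outside the 7 families, 1 was called higher and 3 lower at 24 hours against time 0, with a median of -0.40. Slc15a3, a lysosomal carrier of histidine and small peptides, went from 25, 26.2 and 28.8 CPM to 52.8, 46.3 and 50.1 (0.90 ± 0.066, adjusted p = 5.16e-08). Ctns, the lysosomal cystine carrier (-0.74 ± 0.083), and the mitochondrial carriers Slc25a13, for aspartate and glutamate (-0.84 ± 0.045), and Slc25a44, for branched-chain amino acids (-0.81 ± 0.057), were lower. The lists were drawn up with results of these data known, and their counts are a description beside the 12.0% and 16.8% of all genes called higher and lower.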

How the data were processed

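RNA-Seq gene counts of 9 MyC-CaP libraries were used, 3 each at 0, 12 and 24 hours, grouped by the sample labels. The authors prepared TruSeq mRNA libraries, sequenced paired ends, trimmed adapters with cutadapt, aligned reads to GRCm38.p6 with STAR and counted them on genes with featureCounts. The deposited table holds the resulting counts without normalization. The strand setting is not given in the sources used here, and overlaps with genes on the other strand came from GENCODE M21. The members and lists were chosen with earlier results of these data known.

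The 6 libraries of each comparison were fitted over the whole table in edgeR 4.0.16 under R 4.3.3 (filterByExpr, TMM factors, quasi-likelihood test), with Benjamini-Hochberg adjustment over all tested genes. CPM values are TMM scaled. p-values measure the spread between these replicates, which shared 1 cell line. Calculations were tested on simulated data. Named transporters were those called in a comparison, those with a mean of at least 20 CPM, and the heavy chains with their light chains, and other members were named after their values were seen. Alternatives were DESeq2 1.42.0, limma-voom (limma 3.58.1), RLE, upper-quartile and total-count scaling, other filters, all 9 libraries in one fit, glmTreat, the adjusted p alone, a replicate block, loess offsets for length and GC content (span 0.3), and leaving out each library. Scaling without mitochondrial genes was added after the data were seen. Promoter sequences are from RefSeq. Some genes are not reported here.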

Additional observations from a re-analysis of the deposited data

How the results depend on the processing

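The number of transporters called kept within 1.5 times of the reported count under most of the 14 alternatives. The exceptions were the adjusted p alone, which gave 4 at 12 hours against time 0, 17 at 24 hours against time 0 and 17 at 24 against 12 hours (10.3%, 70.9% and 71.3% of all genes), and glmTreat at 1.5-fold, which gave 5 at 24 against 12 hours (15.5% of all genes, from 25.7%). With each library left out in turn, 0 to 0, 7 to 9 and 7 to 9 transporters were called, and 1.29% to 1.72%, 28.1% to 28.7% and 25% to 26.1% of all genes. With the replicate block, 0, 7 and 9 were called (1.51%, 28.4% and 25.7% of all genes), Slc7a3 being gained at 24 against 12 hours. Same-numbered libraries had correlations of -0.158 to 0.088 in how they deviated from the means of their times, so that the numbers did not pair them. The 19 untested members had too few counts for the filter. Slc3a1, Slc7a14 and Slc7a3 had the fewest of those tested (102, 222 and 403 over the 9 libraries). As the strand setting is not given, whether reads of genes on opposite strands were kept apart is not known. Slc36a1, Slc43a2, Slc38a4, Slc38a10 and Slc7a4 were called at 24 hours against time 0 in each of the 21 analyses. No called difference turned its direction in any analysis, and the replicate block alone changed no other call. Added to the length and GC offsets, the block changed the number called from 8 to 7 at 24 hours against time 0, where Slc7a3 was lost. At 24 against 12 hours it went from 6 to 7, with Slc38a10 called again.

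Estimates near 0 of uncalled genes changed sign, and the cause was not tested. With the length and GC offsets, the log2 fold changes were 0.0370 for Slc1a5 and 0.13 for Slc7a1 at 24 hours against time 0, and -0.0012 for Slc38a4 and -0.0265 for Slc38a9 at 12 hours against time 0, and 0.0600 for Slc7a1, 0.0439 for Slc7a5 and 0.0320 for Slc7a6 at 24 against 12 hours. With these offsets and the replicate block, the log2 fold changes were 0.0370 for Slc1a5 and 0.13 for Slc7a1 at 24 hours against time 0, and -0.0175 for Slc38a4 and -0.0330 for Slc38a9 at 12 hours against time 0, and 0.0561 for Slc7a1, 0.0396 for Slc7a5 and 0.0318 for Slc7a6 at 24 against 12 hours. Under total counts, the log2 fold changes were -0.21 for Slc1a5, -0.21 for Slc38a9, -0.18 for Slc43a3 and -0.12 for Slc7a7 at 24 against 12 hours, and -0.0132 for Slc38a9 at 12 hours against time 0, and -0.22 for Slc38a9 and -0.10 for Slc7a7 at 24 hours against time 0. With all 9 libraries in one fit, the log2 fold changes were -0.0038 for Slc1a5 and -0.0012 for Slc38a9 at 24 against 12 hours. With upper-quartile factors, the log2 fold changes were -0.0070 for Slc38a9 at 12 hours against time 0, and 0.0179 for Slc7a1 at 24 hours against time 0. With the replicate block alone, the log2 fold changes were -0.0008 for Slc38a9 at 12 hours against time 0, and -0.0042 for Slc38a9 at 24 hours against time 0. With no filter, the log2 fold changes were -0.0025 for Slc38a9 at 24 hours against time 0. With at least 10 counts in every library, the log2 fold changes were -0.0022 for Slc38a9 at 24 hours against time 0. With limma-voom, the log2 fold changes were -0.0158 for Slc38a9 at 24 hours against time 0. Ranges over the analyses that leave out a library crossed 0 for further uncalled estimates. At 12 hours against time 0, these were Slc36a1 (-0.0857 to 0.0469), Slc36a4 (-0.0575 to 0.0055), Slc38a4 (-0.13 to 0.16), Slc38a9 (-0.0968 to 0.0955), Slc3a2 (-0.0490 to 0.0023), Slc6a8 (-0.0514 to 0.0079), Slc6a9 (-0.0651 to 0.0125), Slc7a3 (-0.18 to 0.0876), Slc7a6 (-0.0273 to 0.0305), Slc7a7 (-0.0172 to 0.0928). At 24 hours against time 0, these were Slc38a9 (-0.12 to 0.10), Slc3a1 (-0.51 to 0.23), Slc7a1 (-0.0941 to 0.0281). At 24 against 12 hours, these were Slc38a9 (-0.11 to 0.12), Slc7a6 (-0.0764 to 0.0046).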

Other observations

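Among the transporters with too few reads for the main test, Slc6a20b, a relative of the proline carriers of the Slc6 family, had 0, 1 and 2 counts at time 0, 0 in each library at 12 hours, and 5, 3 and 9 at 24 hours. With no filter on low counts it was called higher at 24 than at 12 hours (adjusted p = 0.00583, and 0.00652 in DESeq2), with 24 hours against time 0 at an adjusted p of 0.0558 and 0.0829. Its exons overlap Sacm1l on the other strand over 21.1% of their length, and no fold is given since the 12-hour libraries held no read. Slc6a12, the betaine and GABA transporter, had 7, 0 and 3 counts at time 0, 4, 2 and 3 at 12 hours, and 17, 8 and 8 at 24 hours. It was called at 24 against 12 hours in the same analyses (log2 fold change of 1.87, adjusted p = 0.0418, and 1.92, adjusted p = 0.0497) and not against time 0 (adjusted p = 0.0525 and 0.0739). Both genes were picked after their values were seen.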
